A study of Mus musculus with 6 samples.

Results

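Proteases that cut the extracellular matrix, and the tissue inhibitors of metalloproteinases (TIMPs) that block them, were examined in mouse knee joint cartilage with and without a conditional deletion of the haemoglobin-β genes in chondrocytes. The genes were the rows of the deposited count table named *Mmp2*, *Mmp3*, *Mmp14*, *Adamts1*, *Adamts2*, *Adamts4*, *Adamts5*, *Timp1*, *Timp2* and *Timp3*, which are 10 of the 55487 genes in the table. They comprised 7 proteases, of which 3 were matrix metalloproteinases (MMPs) and 4 were ADAMTS proteases, and 3 inhibitors. Both protease families use zinc at the active site and are made as inactive precursors. MMPs are mostly activated outside the cell or at its surface, whereas ADAMTS proteases are usually trimmed by furin-like enzymes and carry thrombospondin repeats that bind matrix. In cartilage, MMPs cut collagens and other matrix proteins, the aggrecanases ADAMTS4 and ADAMTS5 cut aggrecan, and TIMPs inhibit by occupying the active site. Transcript levels do not report activation or inhibition of the proteins. On GRCm38, the MMP genes lie at separate loci (*Mmp2* at chr8:92827291-92853420, *Mmp3* at chr9:7445822-7455975, *Mmp14* at chr14:54431612-54445364). The ADAMTS genes include 2 on chromosome 16 (*Adamts1* at chr16:85793827-85803113, *Adamts5* at chr16:85856173-85901828, *Adamts2* at chr11:50602084-50807573, *Adamts4* at chr1:171250421-171260637), and the TIMP genes lie on 3 chromosomes (*Timp1* at chrX:20870166-20874735, *Timp2* at chr11:118301069-118355740, *Timp3* at chr10:86300372-86349506).

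Poly(A) RNA came from cartilaginous tissue of the knee joint of mice at postnatal day 6, with 3 WT libraries and 3 *Hbb*-cKO libraries, the latter carrying a conditional deletion of *Hbb* in chondrocytes. Floxed *Hbb* mice on a C57BL/6J background had been bred, per the methods, with Prx1-Cre mice, in which limb mesenchyme and the chondrocytes derived from it recombine, or with tamoxifen-induced Col2a1-CreERT2 mice, in which chondrocytes recombine. In the paper, the name *Hbb*-cKO stands for the Col2a1-CreERT2 cross, and its controls in several experiments were floxed mice without Cre. For the sequenced libraries themselves, the labels name neither the Cre line nor the alleles and tamoxifen of the WT mice, and the number of mice per library is not stated. Library totals ran from 16544800 to 20969914 counts. Levels are CPM, that is counts per 1000000 of the library size after TMM normalisation, and are given as mean ± s.e.m. over n = 3 libraries per group. The summed level of the targeted genes *Hbb-bs* and *Hbb-bt* was 16783, 12428 and 6900 CPM in WT replicates 1 to 3 and 4188, 5435 and 5006 CPM in *Hbb*-cKO replicates 1 to 3. *Hbb*-cKO libraries thus held 40.5% of the WT mean and all lay below all WT libraries, with a log2 fold change of -1.30 (SE 0.31) that missed the threshold in edgeR (adjusted p = 0.2295) and passed it in DESeq2 (adjusted p = 0.002047). The erythroid markers that the deletion does not target, led by *Hba-a1* and *Hba-a2*, moved with it. These 5 summed to 20020, 14408 and 6535 CPM in WT and to 4602, 6294 and 5489 CPM in *Hbb*-cKO, 40.0% of the WT mean. Of the 5, 4 were negative, 0 were called by edgeR and 3 by DESeq2, which called 1.45% of all genes tested. The level of *Hbb* therefore does not by itself check the deletion, since a smaller share of blood cells and a deletion in chondrocytes cannot be told apart here. All 11 chondrocyte markers were detected in every library, and so were all 10 markers of skeletal muscle, so the tissue was not pure cartilage. The chondrocyte markers, led by *Col2a1* and *Col9a2*, summed to 33316 to 43561 CPM in WT, to 57200 and 41262 CPM in *Hbb*-cKO replicates 2 and 3, and to 16325 CPM in *Hbb*-cKO replicate 1, which stood apart. The sex makeup also differed between libraries. *Hbb*-cKO replicate 2 held 6 counts of *Xist* (transcribed from the inactive X chromosome) against 2725 to 10430 in the others. WT replicates 1 and 2 held 0 counts of 4 Y-linked genes against 1010 to 2907 in the others. Y-linked counts were thus present in every *Hbb*-cKO library but in WT only in replicate 3, so sex makeup was unbalanced between the groups. Its part in the fold changes was not tested. WT replicate 3 and *Hbb*-cKO replicates 1 and 3 held counts of both kinds, so these libraries held RNA of both sexes. In bulk tissue, fewer cells of a type and less RNA per cell cannot be told apart.

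The DNA just upstream of 3 members is shown because they represent contrasting start sites: *Mmp3* had the lowest level of the 10 genes, *Mmp14* is an MMP whose WT and *Hbb*-cKO libraries did not overlap, and *Adamts1* is an ADAMTS protease with several motifs. Each sequence is the 250 bases before the RefSeq start on GRCm38, read 5′ to 3′ on the gene's strand, at chr9:7445572-7445821 (plus strand), chr14:54431348-54431597 (plus strand) and chr16:85803114-85803363 (minus strand). Capitals mark matches to any of the motifs described with them.
Mmp3: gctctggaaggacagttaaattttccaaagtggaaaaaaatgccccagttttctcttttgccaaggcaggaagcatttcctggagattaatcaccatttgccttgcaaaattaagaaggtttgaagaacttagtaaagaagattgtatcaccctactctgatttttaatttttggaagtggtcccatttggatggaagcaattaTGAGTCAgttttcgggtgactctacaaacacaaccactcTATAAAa
Mmp14: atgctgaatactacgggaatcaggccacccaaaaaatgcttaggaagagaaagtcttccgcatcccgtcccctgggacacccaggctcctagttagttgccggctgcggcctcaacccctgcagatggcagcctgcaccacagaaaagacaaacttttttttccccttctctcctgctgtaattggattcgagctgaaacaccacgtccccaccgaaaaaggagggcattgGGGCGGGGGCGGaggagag
Adamts1: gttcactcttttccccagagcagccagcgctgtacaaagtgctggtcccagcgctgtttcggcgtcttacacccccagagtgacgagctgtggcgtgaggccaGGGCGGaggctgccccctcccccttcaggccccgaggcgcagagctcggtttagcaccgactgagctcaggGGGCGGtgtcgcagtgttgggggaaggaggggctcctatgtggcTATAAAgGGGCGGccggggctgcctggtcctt
Motifs were searched on both strands in the 7 members with an entry in the RefSeq promoter table, namely all but *Mmp2*, *Adamts4* and *Adamts5*. The TATA motif TATAAA, found in 12.4% of the 32851 promoters of the table, was present in *Mmp3* and *Adamts1*. Its position relative to the RefSeq start differed, at 7 to 2 bases before the start in *Mmp3* and 32 to 27 bases before it in *Adamts1*. All positions depend on the annotated start, and the start used in this tissue was not measured. The AP-1 motif, TGACTCA or its complement TGAGTCA, was found in 4.46% of all promoters and among the members in *Mmp3* alone, 46 to 40 bases before the start. The GC box GGGCGG, found in 32.7% of all promoters, was present in the other 6 matched members and absent from the *Mmp3* window. *Mmp14* had 2 GC boxes, 19 to 14 and 13 to 8 bases before the start, and between and overlapping them the EGR motif (GCGGGGGCG or GCGTGGGCG), which was found in 3.06% of all promoters. The share of G and C was 37.6% in *Mmp3*, 55.2% in *Mmp14* and 65.6% in *Adamts1*, against a median of 52.4% over all promoters. These matches describe letters only, and no binding was measured.

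Because longer transcripts collect more reads, levels of different genes were compared as CPM per kb of annotated exon. On that scale, over all 6 libraries, the order of mean levels was *Mmp2* (297), *Timp2* (243), *Mmp14* (118), *Timp1* (97.1), *Timp3* (22.7), *Adamts2* (14.9), *Adamts1* (8.74), *Adamts4* (4.78), *Adamts5* (3.30) and *Mmp3* (1.25). *Mmp2* encodes gelatinase A and *Mmp14* encodes the membrane-type MMP that, with TIMP2 bound to it, can activate the MMP2 precursor at the cell surface. The components of that known activation complex were therefore the 3 genes with the highest mean levels per kb among these 10. *Mmp9*, which is not among them, had 133 CPM per kb in WT and 117 in *Hbb*-cKO, against 104 and 132 for *Mmp14*. The inhibitor *Timp2* stood 2.50-fold above *Timp1* and 10.7-fold above *Timp3*, whose product is held in the matrix and is the main TIMP against aggrecanases. Among ADAMTS genes, *Adamts2*, which encodes the procollagen N-proteinase, was 4.53-fold above the aggrecanase gene *Adamts5*. *Mmp3* encodes stromelysin 1, which cuts proteoglycans and can activate other MMPs, and its level was lower than that of *Mmp2* by a factor of 238. The ranges over the 6 libraries met between the neighbours *Mmp2* and *Timp2*, *Mmp14* and *Timp1*, *Adamts1* and *Adamts4*, and *Adamts4* and *Adamts5*, and did not meet between the other neighbours in the order. In total, the 10 genes took 0.303% to 0.337% of the counts of a library.

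**Figure D1:**
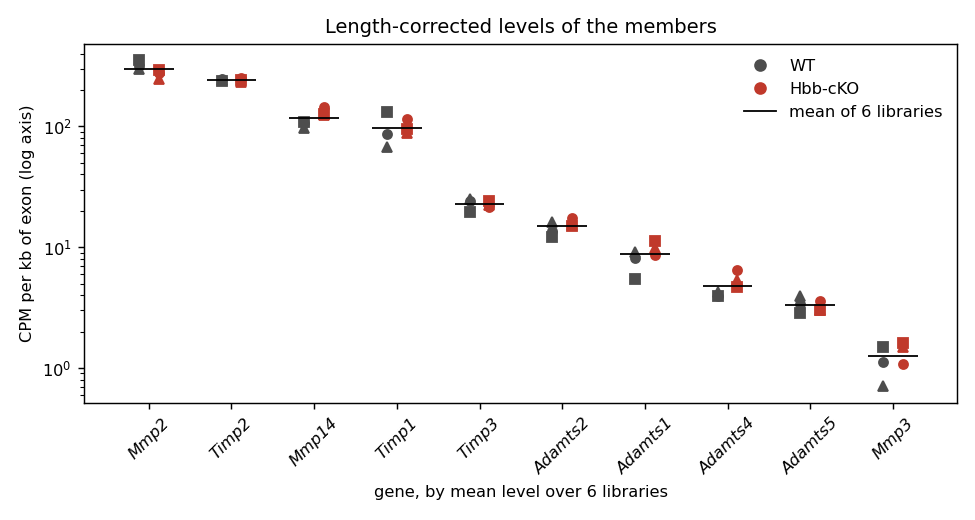
Level of each gene in CPM per kb of exon (log axis) in 3 WT (grey) and 3 *Hbb*-cKO (red) libraries, with circles, squares and triangles for replicates 1, 2 and 3 and a black line at the mean of the 6 libraries. *Mmp2* at 297 and *Mmp3* at 1.25 are the ends of the order, and the ranges of *Timp1* and *Timp3* do not meet.

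The question for the knockout was whether loss of haemoglobin-β in chondrocytes was accompanied by other levels of these genes. None of the 10 passed edgeR's quasi-likelihood test or DESeq2 at an adjusted p under 0.05, where edgeR called 0.105% and DESeq2 1.45% of the 17175 genes tested. All 10 passed the filter on low counts and were tested. At an unadjusted p under 0.05 in edgeR, 2 of the 10 were counted, *Adamts4* and *Mmp14*, where the share over all genes tested was 10.1%. The fold changes of the 10 were positive for 6 and negative for 4, with a median log2 fold change of 0.13, against -0.01 over all genes. By class, the median was 0.34 for the 3 MMPs, 0.29 for the 4 ADAMTS proteases and -0.004066 for the 3 TIMPs. In *Mmp14* and *Adamts4*, every *Hbb*-cKO library lay above every WT library, which held for 8.7% of all genes tested, and in *Mmp2* every one lay below, which held for 8.96%. The count of members whose groups did not overlap was 3 with all libraries and 5 without WT replicate 2, WT replicate 3 or *Hbb*-cKO replicate 1, where 13.1% to 16.0% of all genes lay higher and 14.0% to 16.0% lay lower. *Mmp2*, *Mmp14* and *Adamts4* were among the 5 in each case. Without WT replicate 1, *Hbb*-cKO replicate 2 or *Hbb*-cKO replicate 3, the count stayed at 3, with the same genes. There, 10.9% to 13.5% of all genes lay higher and 11.9% to 13.6% lay lower.

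Among the MMPs, *Mmp14* was measured at 639, 649 and 573 CPM in the WT libraries and at 861, 749 and 742 CPM in the *Hbb*-cKO libraries. The lowest *Hbb*-cKO library was above the highest WT library, and *Hbb*-cKO replicate 1 was the highest of all. The means were 620 ± 23.8 CPM in WT and 784 ± 38.6 CPM in *Hbb*-cKO, a ratio of 1.26. This is a log2 fold change of 0.34 (SE 0.13, 95% interval 0.04 to 0.64), with an unadjusted p of 0.03148 in edgeR that did not hold after adjustment (adjusted p = 0.4339, and 0.2266 in DESeq2).

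*Mmp2* was the most abundant protease in every library and differed in the opposite direction. It was measured at 1058, 1187 and 1005 CPM in WT and at 934, 978 and 835 CPM in *Hbb*-cKO. All *Hbb*-cKO libraries were below all WT libraries, although the gap between WT replicate 3 and *Hbb*-cKO replicate 2 was small. With means of 1084 ± 54.1 and 916 ± 42.2 CPM, the log2 fold change was -0.24 (SE 0.14, 95% interval -0.56 to 0.07), and the adjusted p in edgeR was 0.5898. *Mmp3* rested on few reads, with 34, 44 and 22 counts in WT and 34, 58 and 57 counts in *Hbb*-cKO. These corresponded to 2.03, 2.67 and 1.27 CPM in WT and 1.93, 2.90 and 2.69 CPM in *Hbb*-cKO, and the groups overlapped. Its log2 fold change was 0.34 (SE 0.33, adjusted p = 0.7909 in edgeR), with a 95% interval from -0.41 to 1.09.

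*Adamts4*, the gene of aggrecanase 1, had the largest log2 fold change of the 10 genes. It was measured at 19.1, 19.1 and 20.5 CPM in WT and at 31.1, 22.3 and 25.7 CPM in *Hbb*-cKO. The WT libraries lay close together, with a coefficient of variation of 4.16%, and below all *Hbb*-cKO libraries, which varied by 16.8%. Its log2 fold change was 0.43 (SE 0.15, 95% interval 0.09 to 0.77), with an unadjusted p of 0.01994 in edgeR. The adjusted p was 0.3712 in edgeR and 0.3163 in DESeq2. Without *Hbb*-cKO replicate 1, the highest library, the log2 fold change was 0.30 (adjusted p = 0.663 in edgeR). Without *Hbb*-cKO replicate 2 it was 0.54.

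*Adamts5*, the gene of aggrecanase 2, was measured at 36.5, 30.5 and 42.9 CPM in WT and at 38.9, 32.4 and 32.3 CPM in *Hbb*-cKO. The groups overlapped throughout, and the log2 fold change was -0.08 (SE 0.15, 95% interval -0.44 to 0.27, adjusted p = 0.9072 in edgeR). *Adamts1*, a protease that cuts aggrecan and versican, lies near *Adamts5* on chromosome 16, with 53059 bases and 1 annotated gene of at most 1 count between them. It was measured at 43.2, 29.1 and 48.2 CPM in WT and at 45.9, 59.6 and 52.0 CPM in *Hbb*-cKO. WT replicate 2 was the lowest library, and *Hbb*-cKO replicate 1 lay below WT replicate 3, so the groups overlapped. For *Adamts1*, edgeR gave a log2 fold change of 0.39 (SE 0.20, 95% interval -0.06 to 0.84, adjusted p = 0.555 in edgeR). *Adamts2*, which removes the amino-terminal propeptide of fibrillar procollagens, was measured at 126, 112 and 151 CPM in WT and at 164, 140.2 and 142 CPM in *Hbb*-cKO. WT replicate 3 lay above 2 of the *Hbb*-cKO libraries, and the log2 fold change was 0.19 (SE 0.14, adjusted p = 0.6953 in edgeR).

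The 3 inhibitors had the log2 fold changes nearest to 0 of all 10 genes. *Timp2*, which inhibits MMPs broadly and takes part in activation of MMP2, was measured at 970, 933 and 941 CPM in WT and at 978, 950 and 908 CPM in *Hbb*-cKO. It varied by 2.03% within WT and 3.72% within *Hbb*-cKO, the smallest coefficients of variation among the 10 genes in either group. The log2 fold change was -0.004066 (SE 0.12, adjusted p = 0.9959 in edgeR), and the 95% interval of the *Hbb*-cKO to WT ratio ran from 0.825 to 1.21. *Timp3* was measured at 198, 160 and 203 CPM in WT and at 174, 195 and 182 CPM in *Hbb*-cKO, with all *Hbb*-cKO libraries inside the WT range. Its log2 fold change was -0.02 (SE 0.13, adjusted p = 0.9738 in edgeR), and the ratio's interval ran from 0.799 to 1.21. *Timp1*, a secreted inhibitor whose gene is often induced by cytokines and growth factors, was the most variable inhibitor, at 77.0, 116 and 59.8 CPM in WT and 102, 84.0 and 78.3 CPM in *Hbb*-cKO. WT replicates 2 and 3 were the highest and the lowest of the 6 libraries, so the *Hbb*-cKO libraries lay inside the WT range. The coefficient of variation of *Timp1* was 34.4% in WT, the log2 fold change was 0.06 (SE 0.24) and the adjusted p in edgeR was 0.9612, with an interval of the ratio from 0.709 to 1.53 that leaves wider room than for the other inhibitors. *Timp1* is on the X chromosome, and the part of the unequal sex makeup in its spread was not tested. Both *Timp1* and *Timp3* lie inside a synapsin gene on the opposite strand. *Syn1* around *Timp1* had 29 to 67 counts per library and shares no exon base with it, and *Syn3* around *Timp3* had 4 to 22 counts and shares 21.3% of the exon length of *Timp3*. As the strand setting of the counting is not known, reads from the shared bases cannot be told apart.

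**Figure D2:**
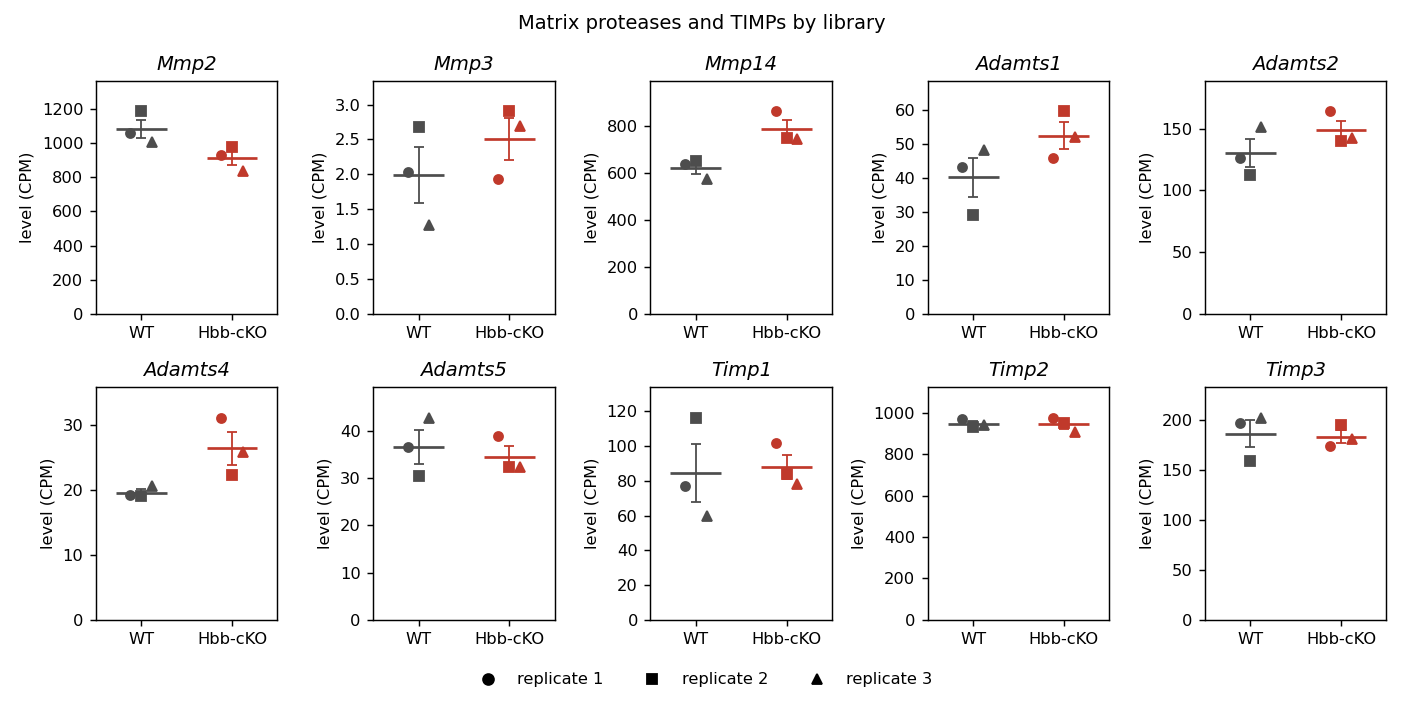
Level in CPM of each of the 10 genes in 3 WT (grey) and 3 *Hbb*-cKO (red) libraries, each panel with its own axis from 0, with symbols for replicates and bars for the mean and s.e.m. The libraries of *Mmp14* and *Adamts4* separate with *Hbb*-cKO above, those of *Mmp2* with *Hbb*-cKO below, and those of the other 7 genes overlap.

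Ratios of counts within a library do not depend on scaling between libraries. They were chosen with the values of the single genes known, and are given as descriptions with no test. As *Mmp14* and *Mmp2* each separated the groups in opposite directions, the separation of their ratio follows from the single genes. The ratios with *Timp2*, whose level hardly differed between groups, largely restate those of the other gene. *Mmp14* had 0.604, 0.547 and 0.570 counts per *Mmp2* count in WT and 0.922, 0.766 and 0.889 in *Hbb*-cKO, with means of 0.574 ± 0.0168 and 0.859 ± 0.0476. Of the MMP counts per kb, *Mmp14* made up 24.4% in WT and 32.5% in *Hbb*-cKO, and *Mmp2* 75.3% and 67.1%. *Timp2* had 1.52, 1.44 and 1.64 counts per *Mmp14* count in WT and 1.14, 1.27 and 1.22 in *Hbb*-cKO, so that all *Hbb*-cKO libraries were lower. Per *Mmp2* count, in contrast, *Timp2* had 0.917, 0.786 and 0.936 counts in WT and 1.05, 0.971 and 1.09 in *Hbb*-cKO, all higher. Between the aggrecanases, *Adamts5* had 1.91, 1.60 and 2.09 counts per *Adamts4* count in WT and 1.25, 1.45 and 1.25 in *Hbb*-cKO, again without overlap. By itself, *Adamts4* separated the groups and *Adamts5* did not. Such counts are not corrected for exon length, and per kb the mean of *Adamts4* (4.78) was above that of *Adamts5* (3.30).

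Summed over the 3 inhibitors and the 7 proteases, there were 0.647, 0.596 and 0.653 inhibitor counts per protease count in WT and 0.604, 0.619 and 0.637 in *Hbb*-cKO, and the groups overlapped. The sums are dominated by *Mmp2*, *Timp2* and *Mmp14*, so this ratio depended on how it was formed. Per kb of exon, it was 0.798, 0.801 and 0.778 in WT and 0.843, 0.803 and 0.844 in *Hbb*-cKO, all higher. Without *Mmp2* among the proteases, it was 1.44, 1.43 and 1.44 in WT and 1.10, 1.22 and 1.17 in *Hbb*-cKO, all lower. With *Mmp2* left out, *Mmp14* dominates the protease sum, so this ratio largely restates *Timp2* per *Mmp14*.

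**Figure D3:**
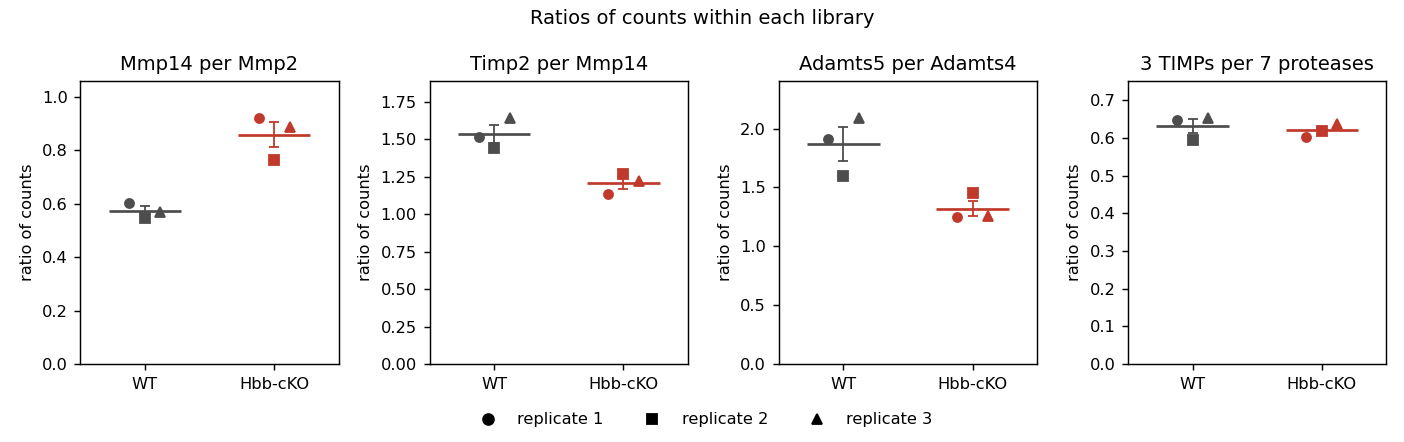
Ratios of raw counts within each library for 3 WT (grey) and 3 *Hbb*-cKO (red) libraries, each panel with its own axis from 0, with symbols for replicates and bars for the mean and s.e.m. *Mmp14* per *Mmp2* has means of 0.574 and 0.859 and *Adamts5* per *Adamts4* lies lower in *Hbb*-cKO, whereas the ratio of the summed inhibitors to the summed proteases overlaps between groups.

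The other members of the 2 protease families showed how the 10 genes compare with their relatives. Of 20 other MMP genes, 12 were tested, and of 15 other ADAMTS genes, 14. None of the 26 passed edgeR's test at an adjusted p under 0.05. In edgeR, 4 reached an unadjusted p under 0.05 (10.1% over all genes tested), and 2 were called by DESeq2 (1.45%). Fold changes were positive for 19 of the 26, with a median of 0.16, where 47.54% of all genes tested were positive. In 7 of the 26 every *Hbb*-cKO library was above every WT library, and in 0 every one was below, where the shares over all genes were 8.7% and 8.96%. *Mmp8*, *Mmp10* and *Mmp25*, singled out after their values were seen, reached the filter's minimum in all 3 libraries of *Hbb*-cKO but not of WT. Their place among the genes tested thus leaned on *Hbb*-cKO, although the filter counts libraries of either group. *Mmp25* also had 14 and 20 counts in WT replicates 1 and 2, above the minimum count of 10. Of the other 23, 16 were positive with a median of 0.14, 3 reached an unadjusted p under 0.05, 1 was called by DESeq2 and 6 lay wholly higher.

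*Adamts17*, an ADAMTS protease linked to fibrillin-containing matrix, was measured at 9.39, 8.07 and 10.5 CPM in WT and at 18.2, 16.3 and 15.3 CPM in *Hbb*-cKO, with no overlap. Its log2 fold change of 0.83 (SE 0.15) had an adjusted p of 0.1409 in edgeR and of 0.002996 in DESeq2. *Adamts18* was lower in level, at 2.93, 3.52 and 5.18 CPM in WT and 7.04, 8.06 and 6.36 CPM in *Hbb*-cKO, and edgeR gave a log2 fold change of 0.88 at an adjusted p of 0.2896. *Adamts8* lay at 9.86 ± 0.359 CPM in WT and 12.7 ± 0.804 CPM in *Hbb*-cKO, with an adjusted p of 0.4551 in edgeR. *Mmp10*, the gene of stromelysin 2 and the closest relative of *Mmp3*, was near the limit of detection, at 0.239, 0.789 and 0.346 CPM in WT and 1.48, 3.05 and 1.32 CPM in *Hbb*-cKO, or 4, 13 and 6 counts against 26, 61 and 28. Its log2 fold change of 2.08 (SE 0.53) had an adjusted p of 0.2592 in edgeR and of 0.04891 in DESeq2. This gene reached the filter's minimum in every library of *Hbb*-cKO but not of WT.

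The proteases best known from the growth plate varied more within *Hbb*-cKO than within WT, with coefficients of variation of 30.4% against 11.0% for *Mmp13* and 54.5% against 16.1% for *Mmp9*. *Mmp13*, the collagenase of hypertrophic chondrocytes and osteoblasts, was measured at 156, 176 and 194 CPM in WT and at 277, 158 and 183 CPM in *Hbb*-cKO. *Mmp9*, the gelatinase B of osteoclasts and neutrophils, was measured at 389, 484 and 540 CPM in WT and at 662, 218 and 365 CPM in *Hbb*-cKO. In both, *Hbb*-cKO replicate 1 was the highest library and *Hbb*-cKO replicate 2 the lowest within *Hbb*-cKO, and the log2 fold changes were 0.23 (SE 0.21) and -0.18 (SE 0.38). The same libraries ranked highest and lowest for the summed osteoclast markers, led by *Ctsk* and *Acp5* (975 CPM in *Hbb*-cKO replicate 1 and 357 CPM in replicate 2, against 567 to 798 CPM in WT), and for the summed osteoblast markers, led by *Ibsp* and *Alpl* (1423 and 643 CPM, against 777 to 1197 CPM in WT). The part of these cells in the spread of *Mmp9* and *Mmp13* was not tested.

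**Figure D4:**
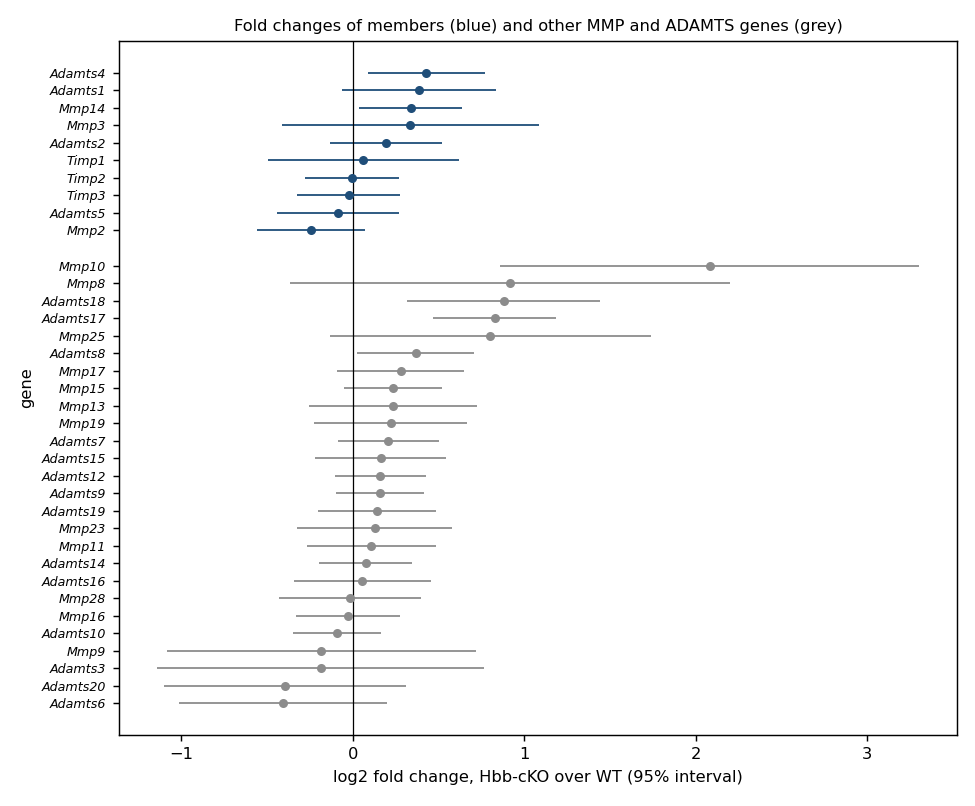
Log2 fold change of *Hbb*-cKO over WT with its 95% interval from edgeR for the 10 members (blue) and the 26 other MMP and ADAMTS genes tested (grey), each set in order of fold change. The members lie between -0.24 (*Mmp2*) and 0.43 (*Adamts4*), and *Mmp10* has the highest value, 2.08, with a wide interval.

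Relatives without the same protease role gave no call in edgeR either. Of the 7 ADAMTS-like proteins, which lack the protease domain, 4 had a positive log2 fold change and the median was 0.00. DESeq2 called 0, and 1 had an unadjusted p under 0.05 in edgeR (10.1% over all genes tested). That gene was *Adamtsl1*, at 11.0, 11.6 and 14.1 CPM in WT and 18.2, 18.5 and 17.4 CPM in *Hbb*-cKO (log2 fold change 0.56, adjusted p = 0.2556 in edgeR). Of the 8 ADAM proteases tested, which are mostly sheddases at the cell surface, 6 had a positive value, 1 reached an unadjusted p under 0.05 in edgeR and 0 were called by DESeq2. *Adam12*, found in mesenchymal cells and muscle precursors, was measured at 65.0, 55.5 and 62.8 CPM in WT and at 82.8, 73.5 and 84.2 CPM in *Hbb*-cKO (log2 fold change 0.39, adjusted p = 0.3035 in edgeR).

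Among 9 genes tested from a list of other inhibitors and their relatives, 6 had a negative log2 fold change and the median was -0.13. The list includes *Serpinh1*, a collagen chaperone, which had its highest value, 0.28. In edgeR, 1 had an unadjusted p under 0.05 (10.1% over all genes tested), and DESeq2 called 0. *Timp4*, the remaining gene of the TIMP family, was measured at 3.41, 3.04 and 20.2 CPM in WT and at 2.61, 1.30 and 2.64 CPM in *Hbb*-cKO. WT replicate 3 alone was high, and its log2 fold change was -2.02 with that library, at an adjusted p of 0.4936 in edgeR, and -0.56 without it. Summed skeletal muscle markers, led by *Acta1* and *Myh8*, were also highest in WT replicate 3, at 49031 CPM against 24482 to 33518 CPM in the other libraries, and the part of muscle in the level of *Timp4* was not tested. *A2m*, the gene of α2-macroglobulin, which traps proteases of all classes, was measured at 112, 135 and 113 CPM in WT and at 10.3, 75.8 and 50.5 CPM in *Hbb*-cKO. All *Hbb*-cKO libraries were lower, but they differed widely, and the log2 fold change of -1.40 (SE 0.65) had an adjusted p of 0.5431 in edgeR. Like the chondrocyte markers, *A2m* was lowest in *Hbb*-cKO replicate 1, and its log2 fold change ranged from -0.92 without that library to -1.98 without *Hbb*-cKO replicate 2, and was -1.75 with a replicate block. *Serpinh1*, the collagen chaperone HSP47 of the serpin family, was measured at 811, 930 and 718 CPM in WT and at 1036, 982 and 973 CPM in *Hbb*-cKO, with an adjusted p of 0.5495 in edgeR.

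Of 13 genes tested for protease activators, convertases and clearance receptors, 7 had a positive log2 fold change and the median was 0.07. In edgeR, 1 had an unadjusted p under 0.05 (10.1% over all genes tested), and DESeq2 called 0. *Lrp1*, the receptor that clears MMPs, ADAMTS proteases and TIMPs from the matrix, was measured at 637 ± 29.6 CPM in WT and 668 ± 27.1 CPM in *Hbb*-cKO (log2 fold change 0.07, adjusted p = 0.9151 in edgeR). *Bmp1*, the procollagen C-proteinase, was measured at 477 ± 15.8 and 543 ± 34.2 CPM (log2 fold change 0.19, adjusted p = 0.6806 in edgeR). *Hpn*, the gene of the serine protease hepsin, had the smallest p of the list, at 4.86 ± 0.126 CPM in WT and 3.07 ± 0.261 CPM in *Hbb*-cKO, with a log2 fold change of -0.66 and an adjusted p of 0.3163 in edgeR.

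Of 15 genes for collagens, proteoglycans and other matrix proteins that these proteases cut or process, 14 had a positive log2 fold change. The median was 0.19. Over all genes tested, 47.54% were positive. None of the 15 was called by edgeR at an adjusted p under 0.05. In edgeR, 4 reached an unadjusted p under 0.05 (10.1% over all genes tested), and DESeq2 called 1 (1.45%). In 6 of the 15, every *Hbb*-cKO library was above every WT library, and in 1 every one was below, where the shares over all genes were 8.7% and 8.96%. *Col3a1*, a fibrillar collagen of soft connective tissue, was measured at 8705, 8864 and 8686 CPM in WT and at 12200, 11332 and 11414 CPM in *Hbb*-cKO, with tight values in both groups. Its log2 fold change of 0.41 (SE 0.15) had an adjusted p of 0.3871 in edgeR and of 0.008563 in DESeq2. *Col1a1*, the chief collagen gene of bone and tendon, was measured at 21407, 23507 and 20557 CPM in WT and at 37519, 24454 and 32923 CPM in *Hbb*-cKO (log2 fold change 0.54, adjusted p = 0.4345 in edgeR). *Col4a1*, of basement membranes, averaged 1117 ± 79.8 CPM in WT and 1492 ± 69.8 CPM in *Hbb*-cKO (log2 fold change 0.42, adjusted p = 0.3929 in edgeR). *Col2a1*, the main collagen gene of cartilage, was measured at 26053, 29259 and 22243 CPM in WT and at 11289, 38230 and 28311 CPM in *Hbb*-cKO, with the lowest and the highest values both in *Hbb*-cKO. *Ncan*, a proteoglycan of nervous tissue, was the gene with a negative value, at 1.49, 3.52 and 2.99 CPM in WT and 0.567, 1.20 and 1.27 CPM in *Hbb*-cKO, all lower (log2 fold change -1.38, SE 0.42, unadjusted p = 0.01177, adjusted p = 0.3225 in edgeR).

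Markers of other cell types went in both directions. Over all genes tested, 47.54% were positive and DESeq2 called 1.45%. The 11 markers of fibroblasts, tendon and joint surface, led by *Thbs4* and *Col14a1*, summed to 3307 to 3985 CPM in WT and 4030 to 4269 CPM in *Hbb*-cKO, with 8 of 11 positive, 0 called by edgeR and 2 called by DESeq2. The 6 endothelial markers, led by *Pecam1* and *Cdh5*, summed to 436 to 530 CPM in WT and 555 to 636 CPM in *Hbb*-cKO, with all 6 positive and 0 called by either tool. The order of the groups in both sums was that of *Mmp14*, *Adamts4* and *Col3a1*, an order that 8.7% of all genes tested had. Other lists leaned the other way. Of the skeletal muscle markers 2 of 10 were positive, with a median log2 fold change of -0.35, and of the osteoclast markers 0 of 6, with a median of -0.27. The sums of these lists overlapped between groups. The 9 neutrophil markers, led by *S100a9* and *S100a8*, summed to 127, 28.3 and 107 CPM in *Hbb*-cKO against 19.9 to 40.3 CPM in WT. All 8 tested were positive, with a median log2 fold change of 1.79, 0 called by edgeR and 2 called by DESeq2. The 9 macrophage markers, led by *Lyz2* and *Csf1r*, summed to 711 to 1090 CPM in WT and 762 to 1020 CPM in *Hbb*-cKO. The 7 erythroid markers in the table, which include the targeted globin genes, summed to 13435 to 36802 CPM in WT and 8790 to 11729 CPM in *Hbb*-cKO, with 6 of 7 negative, 0 called by edgeR and 5 called by DESeq2, and without the targeted genes the sum was lower by a like share. All markers of these lists had a count in every library except for 1 neutrophil marker. The part of these cells in the levels of the proteases and inhibitors was not tested.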

How the data were processed

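Poly(A) RNA from 3 WT and 3 *Hbb*-cKO knee cartilage libraries was analysed. The authors deposited 1 table of whole-number counts per gene, not normalised. Tools in the submitters' processing notes are HISAT2 2.1.0, fastp 0.19.5, CASAVA 1.8, edgeR and StringTie. The sources used here give no build, strand setting or counting options. Gene positions matched GENCODE M21 (GRCm38) for 99.4% of shared identifiers. Groups came from the genotype labels. All libraries differed by more than sampling noise (chi-square per gene of at least 14.6 over 15 pairs) and were kept as replicates. As separate animals are not stated, p-values measure the spread between libraries.

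Genes were filtered by edgeR 4.0.16 on R 4.3.3 (minimum count 10, minimum total 15), leaving 17175, and fitted once with TMM factors, robust quasi-likelihood and Benjamini-Hochberg adjustment, with a threshold of 0.05. Alternatives were leaving out each library, a replicate block, no filter, a filter of 1 CPM in 3 libraries, DESeq2 1.42.0, and factors by RLE or by TMM with globin genes left out. Promoters and their motif shares came from RefSeq (GRCm38.p6). Protein sequences were not used here. The members, 7 pathway lists, 9 marker lists and ratios were chosen with earlier results of these data known. Genes named from a pathway list were those past the threshold, the 3 with the smallest p and the 3 with the highest mean level, of which those most informative are described, beside *Mmp9*, *Mmp13* and *Timp4*. *Syn1* and *Syn3* were named because they contain a member. Other overlaps of members with genes are not reported here.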

Additional observations from a re-analysis of the deposited data

How the results depend on the processing

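No member was called under any of the 12 alternatives to the edgeR fit, and 109 of their 120 fold changes kept the direction. *Mmp2*, *Mmp3*, *Mmp14*, *Adamts1*, *Adamts2* and *Adamts4* kept theirs in all 12, and *Mmp14* ranged from 0.27 (without *Hbb*-cKO replicate 1) to 0.38. Reversals were within 0.14 of 0 for members. *Timp2* was 0.00339 with DESeq2, 0.003407 with RLE factors and 0.01043 without a filter. On leaving out 1 library, the range was -0.02769 to 0.02783 for *Timp2*, -0.11 to 0.04036 for *Timp3*, -0.13 to 0.38 for *Timp1* and -0.19 to 0.04425 for *Adamts5*. The same range also crossed 0 for *Adam15* (-0.12 to 0.12), *Adam9* (-0.05119 to 0.10), *Adamtsl4* (-0.08484 to 0.08507), *Col2a1* (-0.38 to 0.37), *Cst3* (-0.26 to 0.15), *Mmp13* (-0.03751 to 0.39), *Mmp23* (-0.05304 to 0.29), *Mmp9* (-0.69 to 0.13), *Serpine2* (-0.14 to 0.05146) and *Thsd4* (-0.15 to 0.08622). *Adamtsl4* was -0.001549 with the filter of 1 CPM in 3 libraries.

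Over all genes, edgeR called 18, and the count was 249 with DESeq2, 60 without a filter, 4 with the replicate block and 1 to 39 on leaving out 1 library (1, 2 and 6 without WT replicate 1, *Hbb*-cKO replicate 3 and *Hbb*-cKO replicate 2, and 39 without WT replicate 3). The replicate numbers did not pair the libraries (correlations of -0.0260, -0.108 and -0.0290 between same-numbered libraries), and with the block *Mmp14* had a value of 0.34 and *Col2a1* of -0.15. The gene lists held 0 calls in edgeR and 3 with DESeq2. The log2 fold change of summed *Hbb* was -1.30 with DESeq2 and passed the threshold there, and ranged from -1.58 (without WT replicate 3, also past the threshold) to -0.98. Inhibitor counts per protease count averaged 0.632 in WT and 0.620 in *Hbb*-cKO, and 0.792 and 0.830 per kb, 1.44 and 1.16 without *Mmp2*, and 0.140 and 0.138 without *Timp2*. The causes were not tested. With 3 libraries a group, the lower ends of the 95% intervals of *Mmp14* and *Adamts4* were 0.04 and 0.09, and low counts limit *Mmp3* and *Mmp10*.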

Other observations

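*Egr1*, which encodes an early growth response transcription factor, was chosen after its values were seen because the *Mmp14* promoter holds an EGR motif. It was measured at 59.9, 58.2 and 58.2 CPM in WT and at 115, 114 and 117 CPM in *Hbb*-cKO. Its log2 fold change was 0.97, with an adjusted p of 0.01909 in edgeR. Whether this call held under the alternatives is not reported here. Among genes tested whose promoter was in the RefSeq table, 774 held the motif, and in 74 of them (9.56%) every *Hbb*-cKO library was above every WT library, against 8.79% of all 11911 such genes. The median log2 fold change was -0.00937 with the motif and -0.00971 over all such genes. Binding was not measured, and the part of *Egr1* in the level of *Mmp14* was not tested.

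*Adam10*, the gene of a widely expressed sheddase, was measured at 75.6, 10.5 and 58.6 CPM in WT and at 69.4, 71.8 and 67.4 CPM in *Hbb*-cKO, so WT replicate 2 alone was low. The log2 fold change was 0.53 with all libraries and 0.06 without WT replicate 2.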
